A study of Mus musculus with 4 samples.

Results

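Keratins of stratified squamous epithelium are not the keratins of the colon lining, and their transcripts were followed here across 4 microarrays of mouse colon. The 10 genes were Krt1, Krt4, Krt5, Krt6a, Krt6b, Krt10, Krt13, Krt14, Krt15 and Krt17. They were taken as a set because Krt5, Krt14 and Krt15 were higher after the carcinogen azoxymethane (AOM), so the AOM values of the set are given as a description. All 10 genes were on the array, with 14 of its 39429 probes, and every probe is reported. One array was hybridized with RNA pooled from each of 4 groups of male mice on the B6.129 background (n3), aged 42 weeks, which were Pla2g3+/+ given vehicle (saline), Pla2g3-/- given vehicle, Pla2g3+/+ given AOM and Pla2g3-/- given AOM. Pla2g3 encodes a secreted phospholipase A2 and was disrupted in the whole animal. AOM was injected at 10 mg/kg weekly for 6 weeks, and the colon was taken 28 weeks after the last injection. Each pool held tissue from 3 to 5 mice by the deposited description, and the AOM tissue is described there as colorectal cancer. Since each group has a single array and no replicates, ratios between arrays carry no p-value, and a larger share of a cell type cannot be told apart from more RNA per cell.

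Keratins form intermediate filaments as pairs of a type I and a type II chain. Basal cells of stratified epithelium make KRT5 with KRT14, and KRT15 is a further basal type I chain. Cells that leave the basal layer switch to KRT1 with KRT10 in epidermis or to KRT4 with KRT13 in the mucosa of the mouth, esophagus and forestomach, while KRT6A, KRT6B and KRT17 belong to hair follicles and to epidermis after wounding. The columnar lining of the colon uses KRT8, KRT18, KRT19 and KRT20 instead, and squamous epithelium lies beside it at the anal canal. In mm9, the probes of the type I members Krt10, Krt13, Krt14, Krt15 and Krt17 lie on chromosome 11, and those of the type II members Krt1, Krt4, Krt5, Krt6a and Krt6b on chromosome 15.

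The unit of every level below is the relative signal, the background-subtracted intensity of a probe over the 75th percentile of all probes there, which was 646 and 649.9 in the vehicle pools labeled Pla2g3+/+ and Pla2g3-/- and 1309 and 1169 in the AOM pools. Between 64.8% and 69.4% of the spots of an array were well above background, and none was saturated. Some measurements were at odds with a plain reading of the labels. The brightest probe of Pla2g3, the targeted gene, gave 0.531 and 0.656 with vehicle and 0.232 and 1.40 after AOM in the pools labeled Pla2g3+/+ and Pla2g3-/-, so it was 1.23-fold and 6.01-fold higher where the gene should be disrupted. Another probe was at least 2.31-fold and 2.76-fold higher there, and a further one 1.06-fold and 6.66-fold. Whether these probes lie in the disrupted part was not tested. The paper reports no staining for the protein in Pla2g3-/- colon. All directions below follow the genotype labels. Xist, the RNA of the inactive X chromosome in females, was not above background in the vehicle pools (0.00419 and 0.00563) but was 1.14 and 0.867 in the AOM pools labeled Pla2g3+/+ and Pla2g3-/-, although all mice are labeled male. The Y-linked genes Eif2s3y, Ddx3y and Uty were also above background on all 4 arrays. Eif2s3y was at 2.61, 3.24, 0.873 and 2.67 in the Pla2g3+/+ and Pla2g3-/- vehicle and the Pla2g3+/+ and Pla2g3-/- AOM pools. The Y-linked gene Kdm5d was at 0.0514, 0.0403, 0.0241 and 0.0150, the last not above background. The AOM pools therefore differ from the vehicle pools in a sex-linked transcript as well as in treatment, and the part of this in the keratin values was not tested. On all arrays, 13 of 13 genes of colon epithelium were above background. Since 64.8% to 69.4% of all spots were too, this detection is not a check of the tissue label.

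The probes are 60 bases long, and 6 of them are shown because the values below turn on them. The second probe of Krt5 and the second probe of Krt6b start at bases 677 and 645 of their transcripts in the array files and cover related coding sequence of the rod. The lines give both, with capitals for the 38 identical bases in their overlap of 47, the closest match between any members' probes.
Krt5, probe 2: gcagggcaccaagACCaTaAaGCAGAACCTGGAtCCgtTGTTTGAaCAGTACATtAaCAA
Krt6b, probe 2: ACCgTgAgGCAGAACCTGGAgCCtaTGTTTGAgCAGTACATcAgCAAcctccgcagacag
The Krt6b probe also carries a Krt6a accession in the array files, so those genes cannot be separated on it. Krt13 has probes that gave different results, 1 at base 279 and 1 at base 885 of the transcript. Capitals in the first mark the codons of the helix initiation stretch, where the rod begins and keratins are most alike, and the other has no capitals.
Krt13, probe 1: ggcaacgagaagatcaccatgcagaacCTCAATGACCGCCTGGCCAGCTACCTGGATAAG
Krt13, probe 2: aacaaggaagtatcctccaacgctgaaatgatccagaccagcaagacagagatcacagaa
Krt14 and Krt15 each rest on 1 probe near the end of the coding sequence. The Krt14 probe covers 606 bases of the genome and so crosses an intron, and the Krt15 probe ends on the stop codon, in capitals.
Krt14: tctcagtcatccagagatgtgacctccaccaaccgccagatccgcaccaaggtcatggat
Krt15: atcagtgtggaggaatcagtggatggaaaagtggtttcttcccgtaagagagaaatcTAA

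Among the keratins of the basal layer, Krt14 and Krt15 were far higher after AOM in both genotypes, and Krt5 was over 2-fold higher after AOM only in the pool labeled Pla2g3-/-. For each member, the brightest probe stands for the gene, over 2-fold is the threshold the study used, and a probe that was not well above background on 1 of the arrays compared gives a bound, written as "at least". In the Pla2g3+/+ pools, 5 of 9 members with a value (Krt4, Krt6a, Krt14, Krt15 and Krt17) were over 2-fold higher after AOM and 2 (Krt5 and Krt10) were over 2-fold lower, and over all 17277 genes with a value the shares were 15.1% and 22.4%. The median log2 AOM/vehicle ratio of those members was 1.77, against -0.17 over all genes. In the pools labeled Pla2g3-/-, 5 of 8 members (Krt5, Krt6a, Krt14, Krt15 and Krt17) were over 2-fold higher and 0 lower, with 9.64% and 15.1% over 16515 genes, and the medians were 2.08 and -0.08. The members were chosen on this contrast, so nothing is read from these shares.

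**Figure D1:**
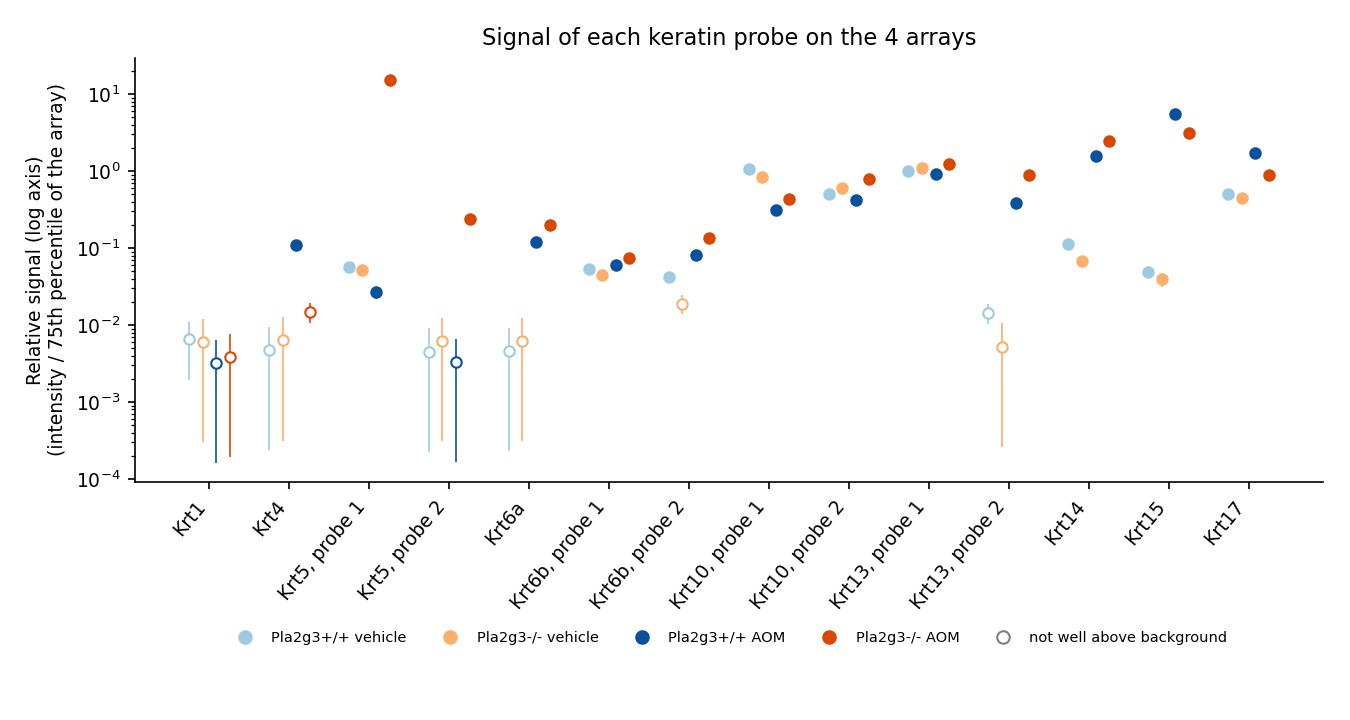
Relative signal (log axis) of the 14 keratin probes on the 4 arrays, with the error that Feature Extraction gives for the spot as bars, cut short where they would pass 0, and open points for signals not well above background. Krt14 and Krt15 sit higher in both AOM pools than in both vehicle pools, whereas Krt5 does so only in the AOM pool labeled Pla2g3-/-, at 15.3 on its first probe.

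Krt5, the type II chain of basal cells, was measured by its first probe on chromosome 15 of mm9 from 101537514 to 101537573. Its relative signal was 0.0561 ± 0.00763 and 0.0515 ± 0.00868 with vehicle in the pools labeled Pla2g3+/+ and Pla2g3-/-, and 0.0266 ± 0.00456 and 15.3 ± 1.53 after AOM, where the error is that of Feature Extraction for the spot and does not cover differences between mice. One pool thus stood apart from the other 3. AOM/vehicle was 297-fold higher in the pools labeled Pla2g3-/- and 2.11-fold lower in Pla2g3+/+, and the log2 ratios (8.21 and -1.08) differed by 9.29. In Pla2g3+/+ the intensity before scaling was 36.2 with vehicle and 34.8 after AOM, on arrays with 75th percentiles of 646 and 1309. The log2 ratio there was -1.08 with scaling by the median, -0.89 with quantile normalization, -0.27 with normexp and -0.06 without scaling. The second probe (101542056 to 101542115) was above background only in the AOM pool labeled Pla2g3-/-, at 0.242, so that AOM/vehicle was at least 10.6-fold higher there. After AOM, the pool labeled Pla2g3-/- was 574-fold above Pla2g3+/+ on the first probe and at least 19.3-fold on the second. With normexp background correction and quantile normalization, the log2 ratios of the first probe were smaller, 6.44 in place of 8.21 for AOM/vehicle in the pools labeled Pla2g3-/- and 6.68 in place of 9.17 between the AOM pools. Between the AOM pools, the first-probe ratio was the second highest of 17195 genes. The set was picked for rises that include the Krt5 value of this AOM pool, so nothing is read from the rank.

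Krt14, the type I partner of Krt5, has 1 probe on chromosome 11 from 100064683 to 100065288. It gave 0.112 ± 0.0120 and 0.0686 ± 0.00884 with vehicle in the pools labeled Pla2g3+/+ and Pla2g3-/-, and 1.56 ± 0.156 and 2.49 ± 0.249 after AOM. Both AOM pools were above both vehicle pools. AOM/vehicle was 13.8-fold in Pla2g3+/+ (log2 3.79) and 36.4-fold in the pools labeled Pla2g3-/- (log2 5.18), ranks 192 of 17277 and 8 of 16515 genes from the highest. The set was picked for this rise, so nothing is read from the ranks. With normexp the log2 ratios were 2.87 and 3.78. After AOM the pool labeled Pla2g3-/- was 1.60-fold above Pla2g3+/+, within the threshold, so the partner of Krt5 did not share its difference between the AOM pools.

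Krt15, a type I chain of basal cells and of hair follicle stem cells, has its probe on chromosome 11 from 99993331 to 99993390. The levels were 0.0485 ± 0.00736 and 0.0396 ± 0.00854 with vehicle in the pools labeled Pla2g3+/+ and Pla2g3-/-, and 5.46 ± 0.546 and 3.17 ± 0.317 after AOM. The AOM pools were again the higher ones. AOM/vehicle was 113-fold (log2 6.81, rank 28) in Pla2g3+/+ and 79.9-fold (log2 6.32, rank 3) in the pools labeled Pla2g3-/-, or log2 4.98 and 4.09 with normexp. Nothing is read from these ranks either, since the set was picked for the rise of Krt15 too. Unlike Krt5, Krt15 was lower in the AOM pool labeled Pla2g3-/- than in that of Pla2g3+/+, by 1.72-fold.

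The keratins of the layers above the basal one did not move as a group. Krt1, the epidermal type II chain (chromosome 15, 101676107 to 101676166), was not above background on any array, with relative signals of 0.00321 to 0.00649. Krt10, its type I partner, had probes that were above background on all arrays. The first (chromosome 11, 99246538 to 99246558) gave 1.07 and 0.829 with vehicle and 0.314 and 0.438 after AOM in the pools labeled Pla2g3+/+ and Pla2g3-/-, so it was 3.42-fold and 1.89-fold lower after AOM. The array files place only 21 of its 60 bases on mm9. The second (99247846 to 99247905) gave 0.503 and 0.607 with vehicle and 0.428 and 0.787 after AOM, all within 2-fold, so the fall of Krt10 rests on the first probe.

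Krt4 and Krt13, the pair of mucosal stratified epithelium, were also unlike each other. The Krt4 probe spans 579 bases of chromosome 15 (101750158 to 101750736) and was above background on 1 array, the Pla2g3+/+ AOM pool, at 0.109 ± 0.0114. It was at 0.00475, 0.00631 and 0.0148, not above background, in the Pla2g3+/+ vehicle pool and the vehicle and AOM pools labeled Pla2g3-/-. AOM/vehicle was thus at least 6.54-fold in Pla2g3+/+, and after AOM the pool labeled Pla2g3-/- was at least 7.33-fold lower, the reverse of Krt5. The first probe of Krt13 (chromosome 11, 99982471 to 99982530), which holds the helix initiation codons shown above, was nearly level at 1.02, 1.09, 0.918 and 1.24 in the Pla2g3+/+ and Pla2g3-/- vehicle and the Pla2g3+/+ and Pla2g3-/- AOM pools. The second (99980412 to 99980471) was not above background with vehicle (0.0145 and 0.00526) and reached 0.386 ± 0.0387 and 0.900 ± 0.0901 after AOM. On that probe AOM/vehicle was at least 23.2-fold in Pla2g3+/+ and at least 39.6-fold in the pools labeled Pla2g3-/-, and 2.33-fold separated the AOM pools. Whether Krt13 counts as higher after AOM therefore depends on the probe.

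Of the keratins of wounded epidermis and hair follicles, Krt6a and Krt17 were over 2-fold higher after AOM in both genotypes, and Krt6b was within 2-fold on its brightest probe. Krt6a (chromosome 15, 101520862 to 101520921) was not above background with vehicle (0.00457 and 0.00620) and was 0.118 ± 0.0123 and 0.199 ± 0.0203 after AOM in the pools labeled Pla2g3+/+ and Pla2g3-/-. That was at least 7.13-fold and at least 8.76-fold. Krt17, a type I partner of KRT6 (chromosome 11, 100117535 to 100117594), went from 0.503 ± 0.0505 to 1.72 ± 0.172 in Pla2g3+/+ and from 0.446 ± 0.0449 to 0.905 ± 0.0906 in the pools labeled Pla2g3-/-, or 3.41-fold and 2.03-fold. The second of these lies at the threshold. After AOM, Krt17 was 1.90-fold lower and Krt6a 1.69-fold higher in the pool labeled Pla2g3-/-, both within 2-fold. The first probe of Krt6b (chromosome 15, 101506492 to 101506551) stayed between 0.0452 and 0.0751 on all arrays. The second (101509450 to 101509509), which shares the Krt6a accession, gave 0.0419 and 0.0190 with vehicle, the latter not above background, and 0.0809 and 0.134 after AOM. It was 1.93-fold higher after AOM in Pla2g3+/+ and at least 5.90-fold in the pools labeled Pla2g3-/-.

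**Figure D2:**
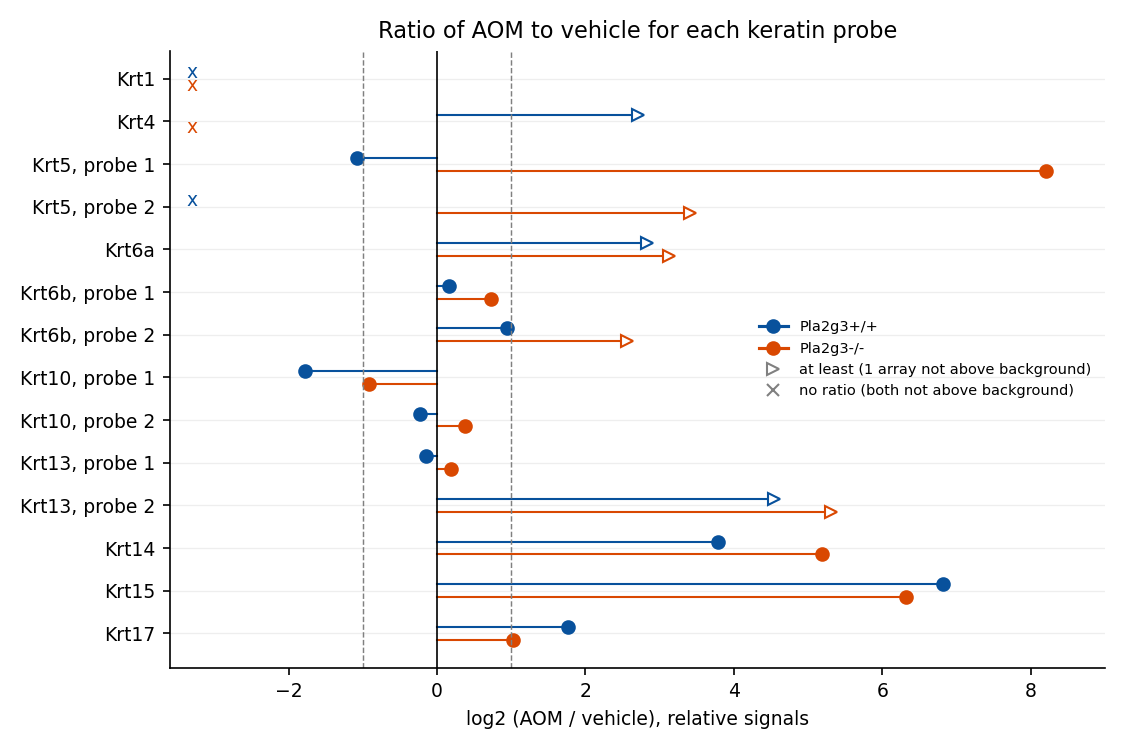
log2 AOM/vehicle ratio of each keratin probe in Pla2g3+/+ (blue) and in the pools labeled Pla2g3-/- (orange), with filled points for measured ratios, open triangles for bounds, crosses at the left edge (not to scale) where neither array was above background, and dashed lines at 2-fold. Krt14, Krt15, Krt6a, Krt17 and the second probe of Krt13 lie above 2-fold in both, and the first probe of Krt5 lies on opposite sides, at -1.08 and 8.21.

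Between genotypes, the set differed after AOM through single genes rather than together. With vehicle, 0 of 7 members with a value were over 2-fold higher and 0 were lower in the pool labeled Pla2g3-/-, with 1.93% and 1.32% (3.25% in all) over 16392 genes. The vehicle ratio farthest from level was that of Krt14, 1.64-fold lower in the pool labeled Pla2g3-/-. After AOM, Krt5 was the 1 of 9 members over 2-fold higher and Krt4 the 1 over 2-fold lower, with 15.1% and 12.9% over 17195 genes, so the share of members past 2-fold was no larger than the background. Their median log2 ratio was 0.44, against 0.03 over all genes. Whether any gene differed by genotype in the same way with vehicle and AOM was tested with limma, which left 1 residual degree of freedom beside terms for genotype and treatment. At an adjusted p of 0.05 it called 0 of 17877 genes and 0 of the 9 members tested, with 215 genes and 0 members at an unadjusted p below 0.05. The genotype term of Krt5 was 4.52 ± 2.80 (SE, log2), with an adjusted p of 0.994 in limma. The residual of the fit holds the difference between the AOM/vehicle ratios of the genotypes, log2 9.29 for Krt5. A gap seen only after AOM thus adds to the error of the term, and this p-value cannot judge that gap.

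Genes that accompany these keratins in stratified epithelium were counted from lists, each gene by its brightest probe. Over all genes, 15.1% were over 2-fold higher and 22.4% lower after AOM in Pla2g3+/+, and 9.64% and 15.1% in the pools labeled Pla2g3-/-. Between the AOM pools, 15.1% were higher and 12.9% lower in that labeled Pla2g3-/-. These shares apply to every list below. Of 14 genes of the basal layer, 6 of 12 with a value were over 2-fold higher after AOM in Pla2g3+/+ and 1 was lower, and in the pools labeled Pla2g3-/- 7 of 13 were higher and 1 was lower. The medians were log2 1.04 and 1.33. Lama3, a chain of the laminin that anchors basal cells to the basement membrane, went from 0.405 to 3.13 in Pla2g3+/+ and from 0.278 to 1.82 in the pools labeled Pla2g3-/-, and columnar epithelium also expresses it. Col17a1, the hemidesmosome collagen, was not above background with vehicle and was 0.0440 and 0.588 after AOM in the pools labeled Pla2g3+/+ and Pla2g3-/-, a 13.4-fold difference between the AOM pools. Dst, which encodes a hemidesmosome plakin among its isoforms, and Dsc3 were the others of the 3 higher in the AOM pool labeled Pla2g3-/-, by 3.46-fold and at least 2.47-fold.

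Trp63, the transcription factor that defines basal cells, did not give 1 result over its probes, of which all but the brightest were read after the values were seen. The brightest probe was level, at 3.86, 3.49, 3.53 and 3.99 in the Pla2g3+/+ and Pla2g3-/- vehicle and the Pla2g3+/+ and Pla2g3-/- AOM pools. The other 3 were above background only in the AOM pool labeled Pla2g3-/-, at 0.329, 0.645 and 0.0179, the array on which Krt5 stood out. The probes of Dsg3, the desmoglein of basal keratinocytes, also went different ways. The brightest probe was 0.137 and 0.0984 with vehicle and not above background after AOM, while the other 2 were not above background with vehicle and were 0.0933 and 0.0953, and 0.0636 and 0.0476, after AOM in the pools labeled Pla2g3+/+ and Pla2g3-/-.

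The suprabasal and cornified layer was uneven. Of 25 genes, 6 of 16 with a value were over 2-fold higher and 2 (Tgm3 and Casp14) lower after AOM in Pla2g3+/+, and 11 of 19 were higher and 3 (Sprr1a, Crnn and Dsg1a) lower in the pools labeled Pla2g3-/-. The medians were log2 0.00 and 1.13. Calml3, a calmodulin-like protein of stratified epithelium, was above background only in the AOM pool labeled Pla2g3-/-, at 1.12, or at least 82.3-fold above the Pla2g3+/+ AOM pool. Its second probe was also above background only there, but at 0.0616, or at least 4.90-fold. Tgm3, a transglutaminase of the cornified envelope, was 3.97 and 2.67 with vehicle, and 0.0906 and 5.83 after AOM in the pools labeled Pla2g3+/+ and Pla2g3-/-, but its second probe stayed between 1.1 and 1.39. Lgals7, a galectin of stratified epithelium, was not above background with vehicle and was 0.0700 and 0.505 after AOM. Of the late markers, Flg, Flg2, Ivl, Sprr1b, Sprr3 and Dsc1 were not above background on any array, while Lor, Sprr1a, Sbsn, Cnfn, Casp14, Crnn and Cdsn were above background on all 4. Lor, the main protein of the cornified envelope, was 0.193 and 0.142 with vehicle and 0.354 and 0.646 after AOM in the pools labeled Pla2g3+/+ and Pla2g3-/-, over 2-fold higher in the latter. Between the AOM pools, 9 of 18 genes were over 2-fold higher and 3 (Tgm1, Ly6d and Sprr1a) lower in the pool labeled Pla2g3-/-, with 15.1% and 12.9% over all genes.

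Proteins that bind keratin filaments or regulate keratinocytes were higher after AOM in more genes of the pools labeled Pla2g3-/-, 7 of 9, than of Pla2g3+/+, 2 of 9 (Dsp and Grhl3). Over all genes these shares were 9.64% and 15.1%, and the difference between the counts was not tested. Dsp, the desmoplakin that ties keratins to desmosomes, went from 3.23 to 9.34 in Pla2g3+/+ and from 3.27 to 15.9 in the pools labeled Pla2g3-/-. Klf4, a regulator of both goblet cells and keratinocytes, was 24.8 and 23.6 with vehicle, and 4.23 and 42.0 after AOM in the pools labeled Pla2g3+/+ and Pla2g3-/-. Grhl3 was 0.0805 and 0.0634 with vehicle and 0.604 and 0.261 after AOM. Ovol1 was 0.328 and 0.338 with vehicle and 0.0661 and 0.295 after AOM. Klf4 and Ovol1 were the 2 over 2-fold lower after AOM in Pla2g3+/+, and 0 were lower in the pools labeled Pla2g3-/-.

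Keratins outside the set were counted in the same way, against the same shares over all genes. Of 11 other keratins of stratified epithelium, 0 of 8 with a value were over 2-fold higher after AOM in Pla2g3+/+ and 2 (Krt2 and Krt78) lower. In the pools labeled Pla2g3-/-, 2 of 7 were higher (Krt78 and Krt12) and 2 lower (Krt2 and Krt80). Krt78, a type II keratin of stratified epithelium, was 0.0285 with vehicle and 0.227 after AOM in the pools labeled Pla2g3-/-, 8.0-fold higher, and its second probe was at least 4.32-fold higher. In Pla2g3+/+ the probes of Krt78 went opposite ways, at least 3.36-fold lower on the brightest and at least 1.44-fold higher on the second. Krt12 was 3.85-fold higher after AOM in the pools labeled Pla2g3-/-, from 0.0443 to 0.17. Of the hair keratins, 4 of 10 with a value were higher after AOM in Pla2g3+/+ (Krt34, Krt35, Krt36 and Krt84), 2 lower (Krt27 and Krt31), and 1 of 8 higher (Krt36) in the pools labeled Pla2g3-/-. Krt36, a type I hair keratin that is also expressed in the filiform papillae of the tongue, went from 0.137 to 20.4 in Pla2g3+/+ and from 0.111 to 0.267 in the pools labeled Pla2g3-/-, the reverse of Krt5 in the pool where it was high. Of the 6 keratins of simple epithelium, 2 were higher (Krt7 and Krt23) and 1 lower (Krt20) after AOM in Pla2g3+/+, and 0 were past 2-fold in the pools labeled Pla2g3-/-. Krt8, the main type II chain of the colon lining, was 200.4, 202.6, 125.8 and 198.3 in the Pla2g3+/+ and Pla2g3-/- vehicle and the Pla2g3+/+ and Pla2g3-/- AOM pools, whereas Krt20 was 93.2 and 22.5 in the Pla2g3+/+ vehicle and AOM pools, 4.15-fold lower after AOM.

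**Figure D3:**
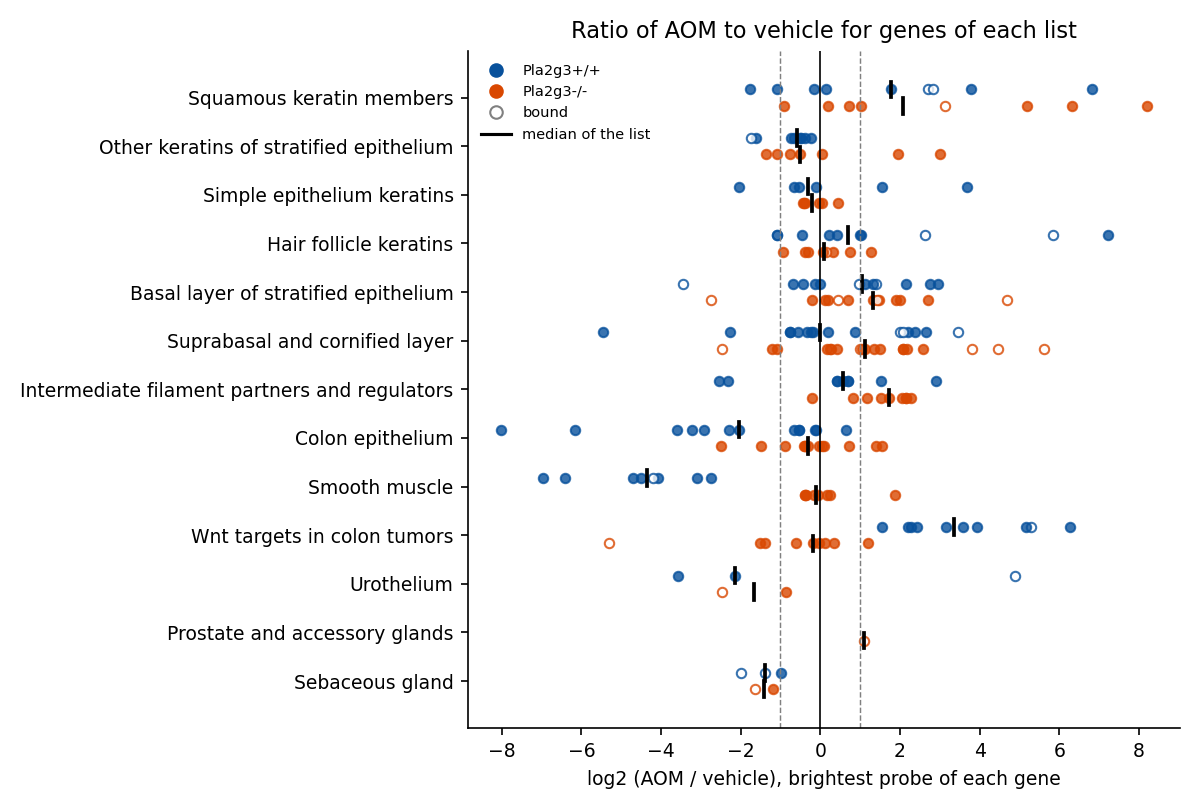
log2 AOM/vehicle ratio of each gene, by its brightest probe, in 13 gene lists, for Pla2g3+/+ (blue) and the pools labeled Pla2g3-/- (orange), with open points for bounds, black bars for the median of a list and dashed lines at 2-fold. The basal layer genes lie mostly to the right in both, with medians of 1.04 and 1.33, whereas smooth muscle lies far to the left and Wnt targets to the right in Pla2g3+/+ only.

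Markers of other tissue moved with the AOM pool of Pla2g3+/+ and much less with that labeled Pla2g3-/-. All 8 smooth muscle genes were over 2-fold lower after AOM in Pla2g3+/+ (median log2 -4.34), where Des, Cnn1 and Myh11 had the lowest log2 ratios (-6.97, -6.42 and -4.69) and Lmod1 was not above background, and 1 (Myh11) was higher and 0 were lower in the pools labeled Pla2g3-/- (median -0.10). All 10 Wnt targets of colon tumors were higher in Pla2g3+/+ (median 3.36), among them Wif1, Prox1 and Mmp7 (log2 6.28, at least 5.28 and 5.16), against 1 of 9 higher (Sox9) and 3 lower (Lgr5, Wif1 and Mmp7) in the pools labeled Pla2g3-/-. Of 13 genes of colon epithelium, 7 were lower in Pla2g3+/+ and 0 higher, with Aqp8, Slc26a3 and Cdx2 farthest down (log2 -8.03, -6.16 and -3.59), and 2 were higher (Cdh1 and Slc26a3) and 2 lower (Cdx2 and Car1) in the pools labeled Pla2g3-/-. The AOM pools thus differed widely in markers of other tissue, while Krt14 and Krt15 were high in both. The part of tissue makeup in the keratin values was not tested. Of organs beside the colon that hold cells with basal keratins, the prostate and accessory glands had 0 of 7 markers above background on 3 arrays and 1 (Svs5, at 0.0491) in the AOM pool labeled Pla2g3-/-. Of 4 uroplakins of the bladder lining, 1 to 3 were above background on each array, and Upk3a only in the Pla2g3+/+ AOM pool, at 0.491, while Upk1a and Upk1b were lower after AOM there (log2 -3.58 and -2.15). Of 5 sebaceous gland genes, 1 to 3 were above background, and 0 were higher after AOM in either genotype. Far2 and Awat2 were lower in Pla2g3+/+, and Far2 and Mc5r in the pools labeled Pla2g3-/-.

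The genes whose 4 values were most like those of each basal keratin were found over 17876 genes, by the root mean square difference of log2 values centred on each gene's mean, with dim signals set to the lowest signal above background of their array. For Krt5, the nearest included Muc5b (1.02), Calml3 (1.09), Serpinb10 (1.52) and Olfm4 (1.79). These 4 were high in the AOM pool labeled Pla2g3-/- and at or near the limit of detection elsewhere, with Muc5b, a gel-forming mucin, at 1.60 there. For Krt14 they were Dapl1 (0.24), Gm5067 (0.37), 1700001D01Rik (0.60), Zfp185 (0.74) and Trim29 (0.74), and the nearest member was Krt6a, at rank 9. For Krt15 they were Serpinb11 (0.45), Xist (0.53), Gm5067 (0.96), Dapl1 (0.99) and 1110028F11Rik (1.03), with Krt14 at rank 9. Between Krt5 and Krt14, which pair in the filament, the difference was 3.04, which put Krt14 at rank 405 from Krt5 and Krt5 at rank 16559 from Krt14. These likenesses rest on 4 values per gene and carry no test.

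**Figure D4:**
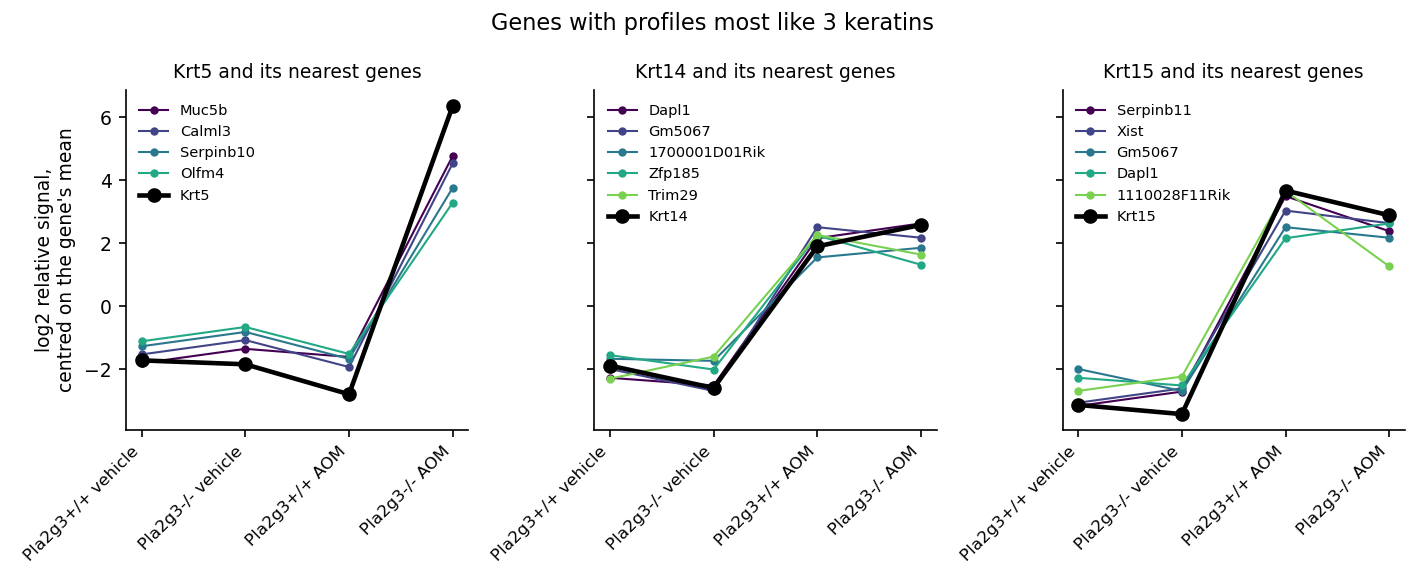
log2 relative signal, centred on each gene's mean over the 4 arrays, of Krt5, Krt14 and Krt15 (black) and the genes named as nearest to each, with dim signals of those genes set to the lowest signal above background of their array. Krt5 and its neighbors peak in the AOM pool labeled Pla2g3-/- alone, whereas Krt14, Krt15 and theirs are high in both AOM pools.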

How the data were processed

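RNA of 4 pools was labeled with Cy3 and hybridized to 1-color Whole Mouse Genome arrays on 1 slide. The authors deposited the spot intensity of Feature Extraction 11.5.1.1, subtracted for background and detrended within each array, with its error, the p-value of its test against background and a flag for spots well above it. The deposited value table is a ratio, the authors' intensity over the 75th percentile of its array. Here, control and outlier spots were left out, log2 intensities of replicate spots were averaged, and the 75th percentile of the array file was subtracted, which gave the deposited table to within 2.87e-07 on the log2 scale. Probes were named by symbol and accession through a RefSeq table of GRCm38.p6 (31372 of 39429 probes, 22371 genes), and mm9 coordinates were read from the array files. The brightest probe stood for a gene. On the dim side of a bound stood the higher of the probe's own signal and the lowest signal well above background of the array (intensity 10.7 to 17.1). The number of arrays limits the precision.

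The fit used limma 3.58.1 in R 4.3.3 with Benjamini-Hochberg adjustment over genes above background on at least 1 array. Its code was run on simulated arrays in which the genotype effect was equal under both treatments. That run does not measure the power of the fit on these data. Here, the 1 residual degree of freedom holds the difference between the AOM/vehicle ratios of the genotypes. Python 3.11.15, pandas 2.3.3, numpy 2.4.6 and matplotlib 3.10.9 were used. Named genes were all members, the 3 genes of each list with the largest log2 ratio in either AOM/vehicle comparison or between the AOM pools, genes needed to name a count of up to 5, and the 5 nearest to Krt5, Krt14 and Krt15, of which 1 is not reported here. The Y-linked genes, Lor and the other late markers, Dsp, Krt8 and the further probes of Trp63, Dsg3, Tgm3, Krt78, Calml3 and Krt36 were chosen after their values were seen. The members, lists and alternatives were chosen with earlier results of these data known. The paper gives 4 mice per pool. Alternatives were the median or no scaling in place of the percentile, quantile normalization, normexp (offset 50) with quantile normalization, the mean over probes, the dimmest probe, the deposited table, a floor set after scaling, no filter on dim probes, a stricter one (detected on both arrays), thresholds of 1.5-fold and 4-fold, and an intensity trend in limma.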

Additional observations from a re-analysis of the deposited data

Results flagged for a closer look

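The log2 AOM/vehicle ratio of the first Krt5 probe was -1.08 in Pla2g3+/+ and 8.21 in the pools labeled Pla2g3-/-, opposite ways in the 2 genotypes, with 1 array behind each group. The difference was not tested. The sign in Pla2g3+/+ rests on a signal close to background, and without scaling its ratio was -0.06.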

How the results depend on the processing

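No paired analysis was possible because each group has 1 array, and no replicate could be left out. Of 96 counts of keratins past 2-fold recomputed under the alternatives, 80 stayed within 1.5 times the reported count, and of 323 ratios of single keratins 301 stayed on the same side of 2-fold, of which 5, all within 2-fold, took the other sign. These totals do not measure stability, since some values could not move. The deposited table repeats the main values, and members with 1 probe keep their ratio with the mean over probes and the dimmest probe. Measured ratios, unlike bounds, also keep their value under the floor and the changed filters. Among keratins after AOM in Pla2g3+/+, those higher went from 5 to 3 with normexp and with only genes detected on both arrays. Those lower went from 2 to 1 with quantile normalization, normexp and the mean over probes, and to 0 without scaling, with the dimmest probe and at 4-fold. In the pools labeled Pla2g3-/-, 1 was lower after AOM at 1.5-fold. Between genotypes with vehicle, 1 was lower at 1.5-fold. Between the AOM pools, those lower in the pool labeled Pla2g3-/- went from 1 to 2 without scaling, to 0 with normexp and with only genes detected on both arrays, and to 3 at 1.5-fold, and those higher from 1 to 2 with the dimmest probe and 3 at 1.5-fold. The Krt13 ratio in Pla2g3+/+ turned from -0.15 to 2.29 with the mean over probes and 4.54 with the dimmest probe, since the other probe was read. In the pools labeled Pla2g3-/-, Krt13 went from 0.18 to 3.80 with the mean over probes, 5.31 with the dimmest and 1.03 without scaling. Krt6b there went from 0.73 to 1.77, 2.56 and 1.58 in these settings, and in Pla2g3+/+ from 0.155 to 1.175 without scaling. Between the AOM pools, Krt13 was 1.22 with the dimmest probe and Krt17 was -1.09 without scaling. Krt5 in Pla2g3+/+ was -0.89 with quantile normalization, -0.06 without scaling, -0.27 with normexp and -0.77 with the mean over probes. Krt17 in the pools labeled Pla2g3-/- was 0.998 with quantile normalization and 0.82 with normexp. With normexp, Krt4 and Krt6a in Pla2g3+/+ were 0.89 and 0.97 and Krt4 between the AOM pools was -0.83. Krt10 in Pla2g3+/+ was -0.76 without scaling and -0.23 with the dimmest probe. Over the companion lists, normexp gave 3 in place of 14 genes lower after AOM in the pools labeled Pla2g3-/-, and 0 in place of 1 (Dsg1a) higher with vehicle. Apart from the probe and the threshold, the causes of these moves were not tested. Leaving out the scaling moved the median of all genes by log2 1.04 and 0.84 in the AOM/vehicle comparisons, and quantile normalization by 0.17 and 0.11. All 4 alternatives of the limma fit called 0 genes. Signals near background limit Krt4, Krt6a, Krt6b, the second Krt5 probe and all vehicle values of Krt5 and Krt15.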
